A study of Mus musculus with 20 samples.

Results

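The dual-specificity MAP kinase phosphatases are 10 genes, Dusp1, Dusp2, Dusp4, Dusp5, Dusp6, Dusp7, Dusp8, Dusp9, Dusp10 and Dusp16, chosen by gene family after the Ensembl identifiers of the count table had been matched to mouse symbols. All 10 were found among its 78258 identifiers and all 10 passed the filter on low counts, Dusp9 only through its ipsilateral libraries. The RNA came from lumbar L4 to L6 dorsal root ganglia (DRG), where the cell bodies of sensory neurons sit among their glia, of 10 male mice whose sciatic nerve had been cut on 1 side 1 day earlier. Each mouse gave 1 library from the lesioned (ipsilateral) side and 1 from the unlesioned (contralateral) side, so the 20 libraries form 4 groups of 5. The conditional knockout (cKO) mice carried Ahr fl/fl with Thy1CRE-ERT2/EYFP, a tamoxifen-inducible Cre driven by the neuronal Thy1 promoter. The controls carried floxed Ahr without Cre, f/f or f/+ by the protocol and FF by their labels. Their sample titles read Wildtype instead. All mice, controls included, received tamoxifen at 100 mg/kg daily for 5 days at 17 weeks of age and were lesioned 4 weeks after it. Ahr encodes the aryl hydrocarbon receptor, a ligand-activated transcription factor. One label field names a spinal cord injury at 1 day where the protocol describes the sciatic nerve cut. The protocol is followed here. Whole ganglia were dissociated 2 to 4 h after lights on, so every value mixes neurons, where the Thy1 promoter is active, with glia and other cells, and the contralateral ganglia come from lesioned mice.

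These enzymes switch MAP kinases off by removing phosphate from both the threonine and the tyrosine of the activation loop. Many of their genes are themselves induced by the kinases they inactivate, so they form a negative feedback loop. In sensory neurons, ERK, JNK and p38 are activated by axotomy and take part in retrograde injury signalling and in axon regrowth. The family falls into 3 groups by location and substrate: nuclear inducible enzymes (Dusp1, Dusp2, Dusp4, Dusp5), cytoplasmic enzymes directed at ERK (Dusp6, Dusp7, Dusp9), and enzymes directed at JNK and p38 (Dusp8, Dusp10, Dusp16).

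The 250 bases upstream of the start are shown for 3 members, because they hold the complete sites, among those searched, of transcription factors that MAP kinases and cAMP activate, and because after injury Dusp1 was called higher, Dusp5 lower in controls, and Dusp8 not at all. Sequences are from RefSeq on GRCm38.p6, which held a window for 8 of the 10 members, all except Dusp4 and Dusp9. The start is that of RefSeq, and lies inside the longer GENCODE M21 gene for each of the 3, so the Dusp1 and Dusp8 windows and the last bases of the Dusp5 window fall within those gene spans. The sequences run 5′ to 3′ on the gene's strand, with sites in capitals. In Dusp1 (chr17:26508473-26508722, minus strand) and Dusp8 (chr7:142095285-142095534, minus strand) the capitals mark the full cAMP response element TGACGTCA, bound by CREB and ATF family proteins. In Dusp5 (chr19:53528895-53529144, plus strand) they mark a pair of adjoining CArG boxes, the site of serum response factor.
Dusp1: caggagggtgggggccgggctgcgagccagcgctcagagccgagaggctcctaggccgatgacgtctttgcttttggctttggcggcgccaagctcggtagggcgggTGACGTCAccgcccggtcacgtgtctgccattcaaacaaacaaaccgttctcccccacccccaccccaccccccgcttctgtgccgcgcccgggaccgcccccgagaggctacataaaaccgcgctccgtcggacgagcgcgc
Dusp8: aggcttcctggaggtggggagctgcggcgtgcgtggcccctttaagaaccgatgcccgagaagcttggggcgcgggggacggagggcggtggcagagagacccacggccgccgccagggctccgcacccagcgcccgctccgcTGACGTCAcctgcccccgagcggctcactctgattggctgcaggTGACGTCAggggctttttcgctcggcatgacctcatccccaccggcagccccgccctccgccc
Dusp5: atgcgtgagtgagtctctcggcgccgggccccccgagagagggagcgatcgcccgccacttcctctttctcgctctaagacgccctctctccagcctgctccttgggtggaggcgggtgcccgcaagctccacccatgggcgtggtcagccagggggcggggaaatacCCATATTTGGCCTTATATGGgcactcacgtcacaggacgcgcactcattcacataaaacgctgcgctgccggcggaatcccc
On both strands, TGACGTCA was present in 2 of the 8 member windows and in 1.62% of the 27025 RefSeq windows of this length. It lay 143 to 136 bases before the start in Dusp1, and at 107 to 100 and 63 to 56 bases before it in Dusp8. A CArG box was present in 1 of 8 member windows and in 1.4% of all windows, at 82 to 73 and 72 to 63 bases before the Dusp5 start. The AP-1 site TGACTCA, held by 4.43% of all windows, matched in 0 of 8. The core of the xenobiotic response element, GCGTG, through which the aryl hydrocarbon receptor binds DNA, was found in 4 of 8 (Dusp2, Dusp5, Dusp7 and Dusp8) against 28.2% of all windows. In Dusp8 2 of these cores overlapped by 1 base, and no other matches overlapped. These matches describe letters in a window and not binding.

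Library totals ran from 76150333 to 118537209 exonic counts. Atf3, the standard transcriptional mark of axotomised sensory neurons, was at 8.46 to 13.8 CPM (counts scaled to a common library size and normalised by TMM) in the contralateral and 369.7 to 462 CPM in the ipsilateral libraries, so the sides separated in every mouse. Ahr was at 21.3, 24.6, 23.8, 27.2 and 24.4 CPM in control and 20.4, 21.0, 20.5, 20.4 and 19.5 CPM in cKO contralateral libraries. The cKO values all lay below the control values, but the difference of -0.25 on the log2 scale (SE 0.0661) had an adjusted p of 0.103 by edgeR. On the lesioned side the Ahr ranges overlapped (30.2 to 38.1 CPM in control, 28.9 to 36.8 CPM in cKO, adjusted p = 1.000). These are counts over all exons of Ahr, and the exon removed by Cre was not analysed here, so they check the genotype labels only in part. The sensory neuron markers (13 genes) summed to between 12468 and 15003 CPM in the 20 libraries, and none of the markers of any cell type searched was at 0 throughout. On the lesioned side 13.8% of all tested genes were higher and 16.0% lower in control mice, and 16.2% higher and 15.1% lower in cKO mice. There 4 of the 13 neuron markers were lower in control and 3 in cKO mice (Isl1 at -0.37 and -0.35). Of 6 satellite glia markers 2 rose in control and 3 in cKO mice, with 1 lower in each. No neutrophil, lymphocyte, erythroid or muscle marker was called. In control mice 1 of 10 macrophage and 1 of 7 endothelial markers were higher (Mrc1 and Tek), and in cKO mice 1 of 7 fibroblast markers was lower (Dpt), each named after its value was seen. In bulk RNA, fewer cells of a type and less RNA per cell cannot be told apart.

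Injury was followed by a rise of 5 of the 10 phosphatases in both genotypes: Dusp9, from near 0, Dusp1, by 2.12- and 2.01-fold in control and cKO mice, and Dusp7, Dusp10 and Dusp16, by 1.31- to 1.55-fold. Dusp5 was lower on the lesioned side in each of the 10 mice but was called in control mice only, a call lost without H62. With the mouse as a replicate block it was called in both genotypes, and with the mouse as a random effect in controls only. In control mice 6 of 10 were called (5 higher, 1 lower) where 29.9% of the 28564 tested genes passed, 13.8% upward and 16.0% downward. In cKO mice 5 members passed, all higher, beside 31.3% of the tested genes, of which 16.2% were up and 15.1% down. Called means an adjusted p under 0.05 in edgeR's quasi-likelihood test with Benjamini-Hochberg adjustment over all tested genes, and fold changes are ipsilateral over contralateral. The members' median log2 fold change, Dusp9 included, was 0.43 in control and 0.27 in cKO mice, beside 0.00 and -0.03 over all tested genes. With Dusp9 left out, the middle member was Dusp16 in control (0.39) and Dusp6 in cKO mice (0.13). Dusp9 could pass the filter only where it was high, so its place in the counts and medians that include it was fixed by the filter. When only genes averaging 1 CPM or more were kept, which leaves both Dusp2 and Dusp9 out, 5 members were called in control and 4 in cKO mice. Over all genes that filter gave 7846 and 8282 calls. How many genes it kept is not given here, so no share over all genes can be set beside these member counts.

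**Figure D1:**
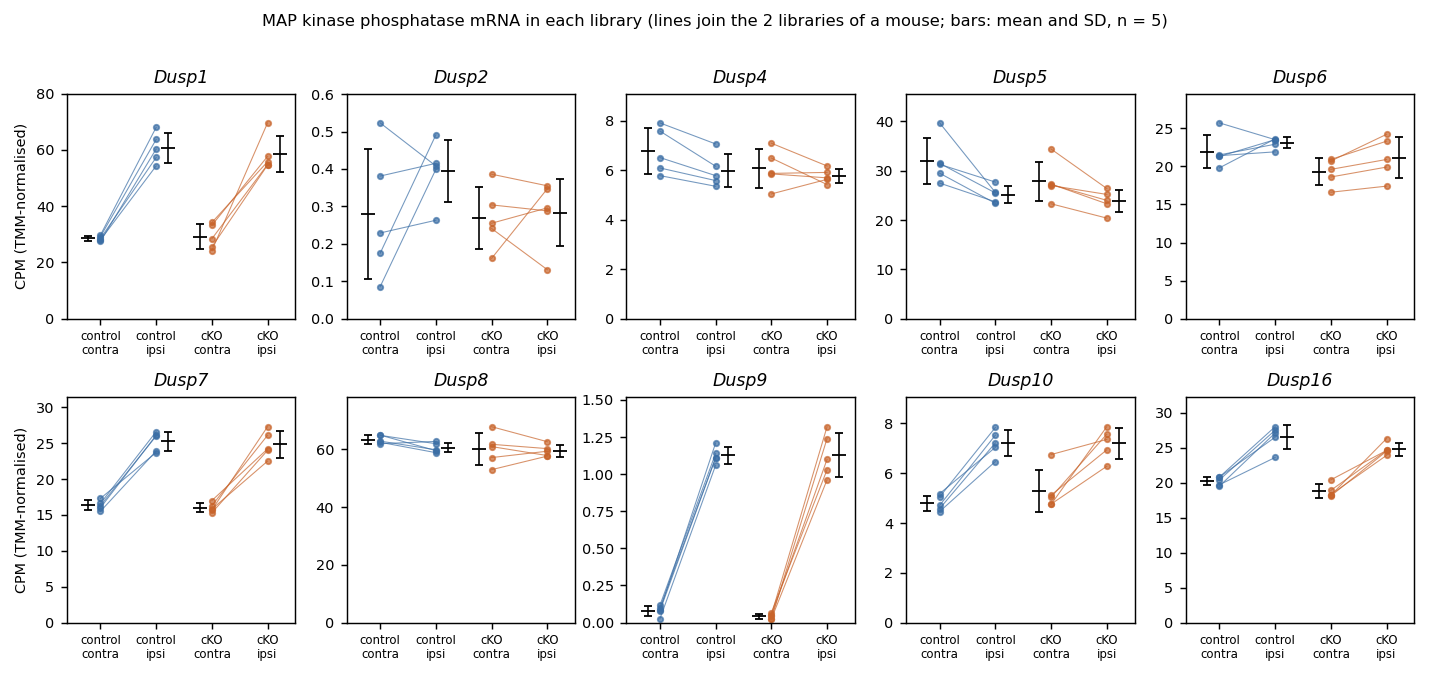
CPM (y axes, linear from 0, scaled per gene) of the 10 phosphatases in the 20 libraries, with lines joining the contralateral and ipsilateral library of a mouse and bars for the group mean and SD of 5 libraries. Dusp1, Dusp7, Dusp9, Dusp10 and Dusp16 rise in all 10 mice and Dusp5 falls in all 10.

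Among the nuclear enzymes, Dusp1 (ENSMUSG00000024190.8, chr17:26505590-26562128, minus strand; gene coordinates here are from GENCODE M21 on GRCm38) is the classic immediate-early phosphatase and acts mainly on p38 and JNK. In the control mice H62, H63, H65, H96 and H97, the order used throughout, its contralateral values were 28.5, 29.2, 27.5, 29.7 and 28.0 CPM and its ipsilateral values 57.3, 63.7, 60.3, 68.0 and 54.3 CPM. In the cKO mice H61, H64, H95, H99 and H100 they were 25.5, 24.2, 34.2, 28.4 and 33.2 CPM and then 54.6, 69.6, 55.8, 54.8 and 57.7 CPM. Every ipsilateral library lay above every contralateral one in both genotypes. The log2 fold change was 1.09 (SE 0.0896, adjusted p = 1.55e-08) in control and 1.01 (SE 0.0895, adjusted p = 3.68e-08) in cKO mice. Within mice, the rise spread over 0.96 to 1.19 log2 units in controls and 0.71 to 1.52 in cKO mice, where H64 was highest. The cKO mice numbered H61 to H65 averaged 1.31 (2 mice) and those numbered H95 to H100 averaged 0.82 (3 mice), while the controls averaged 1.09 and 1.07. What these number ranges stand for is not stated in the labels.

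Dusp2 (ENSMUSG00000027368.7, chr2:127336159-127338376, plus strand), an inducible enzyme best known from lymphocytes, was near the limit of detection, with 7 to 63 counts per library. Contralateral values were 0.381, 0.0857, 0.229, 0.523 and 0.175 CPM in control and 0.386, 0.304, 0.255, 0.241 and 0.161 CPM in cKO mice. Ipsilateral values were 0.415, 0.399, 0.263, 0.408 and 0.491 CPM in control and 0.355, 0.288, 0.296, 0.131 and 0.347 CPM in cKO mice. The sides overlapped in both genotypes. The differences of 0.48 (SE 0.347, adjusted p = 0.346) and 0.06 (SE 0.358, adjusted p = 0.924) were not separable from the spread between libraries. All 8 lymphocyte markers together summed to 2.70 to 12.1 CPM and none of the 8 was called.

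Dusp4 (ENSMUSG00000031530.7, chr8:34807297-34819894, plus strand) is a nuclear phosphatase of ERK, JNK and p38. In control mice it was at 6.51, 7.58, 6.09, 7.91 and 5.78 CPM contralaterally and 5.78, 6.16, 5.58, 7.06 and 5.35 CPM ipsilaterally. In cKO mice it was at 6.49, 5.87, 5.85, 7.09 and 5.04 CPM and then 5.42, 5.91, 5.69, 6.17 and 5.63 CPM. The ranges overlapped, but within mice the lesioned side was lower in 5 of 5 controls and in 3 of 5 cKO mice. The log2 fold change of -0.18 in controls (SE 0.0958, adjusted p = 0.176) was not called without pairing. With the mouse as a replicate block in edgeR it was again -0.18 and was called (adjusted p = 0.0470), but limma-voom with the mouse as a random effect did not call it (adjusted p = 0.115). In cKO mice it was -0.07 (adjusted p = 0.616).

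Dusp5 (ENSMUSG00000034765.7, chr19:53529109-53542431, plus strand), the nuclear phosphatase specific for ERK, was the 1 member called lower without pairing. Control mice had 39.7, 29.5, 31.5, 27.5 and 31.3 CPM contralaterally and 25.6, 23.4, 25.5, 23.7 and 27.7 CPM ipsilaterally. The cKO mice had 27.3, 23.3, 27.0, 34.4 and 27.2 CPM and then 23.3, 20.4, 25.2, 26.4 and 24.0 CPM. Each of the 10 mice was lower on its lesioned side, although the group ranges overlapped, narrowly in controls. The log2 fold change was -0.34 in controls (SE 0.0991, adjusted p = 0.0125) and -0.22 in cKO mice (SE 0.0991, adjusted p = 0.0982, not called). The call rested on H62, the control mouse with the highest contralateral value: without it the change was -0.26 (adjusted p = 0.0587). With the mouse as a replicate block, the edgeR values were -0.33 (adjusted p = 6.52e-04) and -0.22 (adjusted p = 0.0117), so both were then called. With the mouse as a random effect in limma-voom, the control change was called (adjusted p = 0.00818) and the cKO change was not (adjusted p = 0.0736). Of the 2473 exon bases of Dusp5, 547 are shared with the antisense gene AC137853.2. The kit marks strand but the counting setting is not given in the sources used here, so reads of the pair may not have been told apart.

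Of the cytoplasmic ERK phosphatases, Dusp6 (ENSMUSG00000019960.9, chr10:99263231-99267489, plus strand) is the usual transcriptional readout of ERK activity downstream of growth factor receptors. Its control values were 25.7, 19.8, 21.4, 21.5 and 21.3 CPM contralaterally and 23.5, 23.6, 21.9, 22.9 and 23.5 CPM ipsilaterally. Its cKO values were 16.6, 19.6, 20.9, 18.6 and 20.7 CPM and then 17.4, 20.9, 23.3, 19.9 and 24.2 CPM. The sides overlapped in both genotypes. The differences of 0.07 (SE 0.0804, adjusted p = 0.556) and 0.13 (SE 0.0805, adjusted p = 0.222) did not pass the test, although the lesioned side was higher in 4 of 5 control and 5 of 5 cKO mice.

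Dusp7 (ENSMUSG00000053716.10, chr9:106368632-106375724, plus strand), a close relative of Dusp6 with the same preference for ERK, rose. Control mice had 17.3, 16.6, 15.5, 16.0 and 16.3 CPM contralaterally and 23.7, 26.6, 23.9, 26.1 and 26.0 CPM ipsilaterally. The cKO mice had 17.0, 15.7, 16.3, 15.8 and 15.3 CPM and then 24.2, 27.3, 26.1, 22.5 and 24.0 CPM. Every ipsilateral library lay above every contralateral one. The log2 fold change was 0.63 in both, with an SE of 0.0508 in each (adjusted p = 5.75e-09 in control and 4.16e-09 in cKO mice).

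Dusp9 (ENSMUSG00000031383.9, chrX:73639419-73643514, plus strand), the X-linked member, went from a few reads to about 1 CPM. The contralateral libraries held 11, 8, 8, 10 and 2 counts in control and 4, 4, 6, 2 and 2 counts in cKO mice. The ipsilateral ones held 93, 86, 93, 104 and 110 counts in control and 102, 156, 115, 103 and 107 counts in cKO mice. In CPM this was 0.116, 0.0980, 0.0795, 0.0830 and 0.0249, then 1.14, 1.11, 1.11, 1.21 and 1.06 in controls, and 0.0455, 0.0507, 0.0666, 0.0241 and 0.0248, then 1.10, 1.32, 1.03, 0.962 and 1.24 in cKO mice. No library of one side came near those of the other. Summed over 5 libraries and scaled by depth, the ratio was 13.7 in control mice (39 against 486 counts, exact 95% interval 9.91 to 19.6) and 26.4 in cKO mice (18 against 583 counts, 16.6 to 44.8). These intervals cover counting error only. The fitted log2 fold changes were 3.77 (SE 0.215) and 4.68 (SE 0.241). Because Dusp9 entered the test only through the libraries where it was high, these are a description, and no p-value is given.

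In the group directed at JNK and p38, Dusp8 (ENSMUSG00000037887.12, chr7:142079490-142095843, minus strand) is a phosphatase with high expression in neurons. Control mice had 62.92, 62.46, 61.96, 65.01 and 64.87 CPM contralaterally and 59.94, 58.89, 62.77, 59.63 and 62.01 CPM ipsilaterally. The cKO mice had 61.83, 52.98, 57.24, 67.93 and 61.04 CPM and then 60.25, 57.65, 59.41, 62.74 and 57.88 CPM. The sides overlapped, and the differences of -0.06 (SE 0.0459, adjusted p = 0.326) and -0.01 (SE 0.0459, adjusted p = 0.851) did not pass the test. With these errors Dusp8 is measured about as closely as Dusp16, whose change was called.

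Dusp10 (ENSMUSG00000039384.9, chr1:184013302-184075636, plus strand), a phosphatase of p38 and JNK found in cytoplasm and nucleus, rose. Its control values were 4.58, 5.18, 4.71, 5.05 and 4.46 CPM contralaterally and 7.22, 7.04, 7.53, 7.84 and 6.47 CPM ipsilaterally. Its cKO values were 5.04, 4.75, 5.12, 4.76 and 6.75 CPM and then 7.57, 7.87, 6.94, 6.28 and 7.36 CPM. The sides separated in controls and overlapped in cKO mice through the contralateral library of H100, at 6.75 CPM. The log2 fold change was 0.59 in control (SE 0.0871, adjusted p = 2.12e-05) and 0.45 in cKO mice (SE 0.0869, adjusted p = 4.24e-04). The H100 contralateral library also had the highest sum of 6 muscle markers of its group, 1679 CPM where the group median was 17.8 CPM. A part of tissue make-up in its Dusp10 value was not tested. Without H100 the cKO change was 0.54 (adjusted p = 2.16e-05).

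Dusp16 (ENSMUSG00000030203.18, chr6:134715468-134792625, minus strand), a JNK-directed phosphatase that shuttles between nucleus and cytoplasm, also rose. Its fitted rise was the smallest of the 5, but in cKO mice it was close to that of Dusp10 (0.45). In the cKO mice H95 to H100 Dusp10 averaged less, at 0.32 against 0.36 for Dusp16. Control mice had 20.4, 20.8, 19.7, 19.5 and 20.8 CPM contralaterally and 27.5, 28.0, 23.6, 27.1 and 26.5 CPM ipsilaterally. The cKO mice had 18.9, 18.2, 20.4, 18.1 and 18.3 CPM and then 24.6, 26.3, 24.6, 24.5 and 23.9 CPM. The sides did not overlap in either genotype. The log2 fold change was 0.39 in control (SE 0.0450, adjusted p = 8.53e-07) and 0.40 in cKO mice (SE 0.0450, adjusted p = 5.85e-07).

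**Figure D2:**
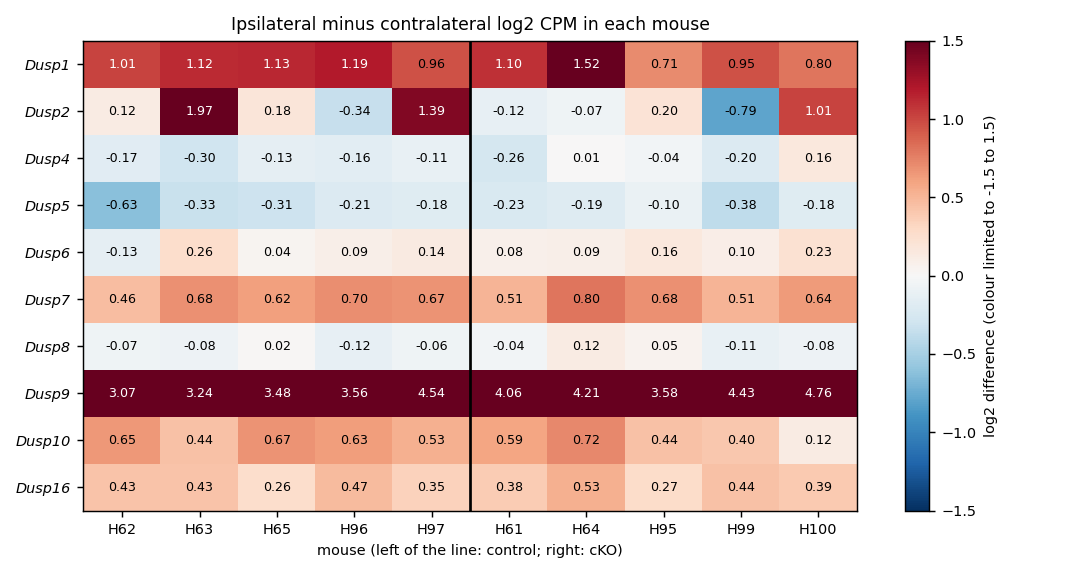
Ipsilateral minus contralateral log2 CPM of each phosphatase (y axis) in each mouse (x axis, 5 control mice left of the line and 5 cKO mice right of it), with the colour limited to 1.5 log2 units either way. Dusp1, Dusp7, Dusp9, Dusp10 and Dusp16 are positive in 5 of 5 mice of both genotypes, and the smallest of these rises is Dusp10 in H100, at 0.12.

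Levels can be compared between members only per length, here as CPM per kilobase of merged exon, with lengths from GENCODE M21. The annotation used for counting is not given in the sources used here, so the lengths counted may differ. In contralateral control ganglia the order was Dusp8 (13.0 ± 0.289, SD, n = 5), Dusp5 (12.9 ± 1.87), Dusp1 (8.64 ± 0.272), Dusp6 (7.01 ± 0.705), Dusp7 (4.87 ± 0.196), Dusp16 (2.59 ± 0.0767), Dusp4 (2.47 ± 0.339), Dusp10 (1.58 ± 0.101), Dusp2 (0.139 ± 0.0867) and Dusp9 (0.0295 ± 0.0126). The libraries of Dusp8 and Dusp5 overlapped, as did those of Dusp16 and Dusp4, and the other neighbours did not. In ipsilateral control ganglia Dusp1 came first at 18.3 ± 1.61 CPM per kilobase, ahead of Dusp8 at 12.5 ± 0.341 and Dusp5 at 10.2 ± 0.696. Dusp7 (7.53 ± 0.403) and Dusp6 (7.37 ± 0.226) then overlapped, Dusp10 (2.37 ± 0.171) passed Dusp4 (2.18 ± 0.245) with overlapping libraries, and Dusp9 (0.413 ± 0.0205) passed Dusp2 (0.197 ± 0.0413). The cKO groups had the same order on both sides, with Dusp5 also overlapping Dusp1, and Dusp4 overlapping Dusp10, contralaterally. The Dusp5 level may include reads of AC137853.2, which shares 547 of its 2473 exon bases. Dusp8 shares 66 of 4870 with the antisense gene Gm32786 and Dusp1 shares 11 of 3311 with Ergic1.

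Between genotypes, no phosphatase passed the test on either side. Contralaterally 0 of 10 were called by edgeR, beside 21 of 28564 genes (0.0735%), and DESeq2 and limma-voom also called 0 of 10, DESeq2 with 1030 genes called over all. At an unadjusted p under 0.05 stood 3 members among 5006 such genes, including Dusp6 (-0.19, SE 0.0806, adjusted p = 0.230) and Dusp16 (-0.11, SE 0.0451, adjusted p = 0.233). The other, Dusp9 (-0.91, SE 0.310), entered the test only through its ipsilateral libraries, so its difference here is a description. The fold changes, cKO over control, were below 0 in 8 of the 10, with a median of -0.09 beside -0.01 over all tested genes. For Dusp6 the contralateral cKO libraries spanned 16.6 to 20.9 CPM and the controls 19.8 to 25.7 CPM. For Dusp9 the difference rests on 18 against 39 counts. These values overlap between genotypes. Leaving out H99, whose contralateral library held the highest Dusp5 and Dusp8 of the cKO group, brought Dusp5 (-0.28, adjusted p = 0.0485) and Dusp8 (-0.12, adjusted p = 0.0427) past the threshold, and the calls over all genes went from 21 to 3326. That library was also the highest of its group for the 13 neuron markers (15003 CPM) and the lowest for the 7 fibroblast markers (937 CPM, against up to 2245 CPM). Whether tissue make-up has a part in this was not tested.

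Ipsilaterally 0 of 10 were called by edgeR, beside 2 genes of all tested (0.00700%), and again 0 of 10 by DESeq2 and limma-voom. Dusp16 (-0.10, SE 0.0448, adjusted p = 1.000) was the only member with an unadjusted p under 0.05, among 674 such genes. Dusp16 spanned 23.6 to 28.0 CPM in controls, and its cKO range of 23.9 to 26.3 CPM lay inside that. Fold changes were below 0 in 9 of 10 members, from -0.49 for Dusp2 (SE 0.347, adjusted p = 1.000) to 0.01 for Dusp9 (SE 0.167, adjusted p = 1.000). The members' median was -0.05, beside 0.00 over all tested genes.

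The test of the difference between the 2 injury responses, the interaction of genotype and injury, called 0 of 10 members and 0% of all genes with edgeR. DESeq2 called 0 members and 11 genes over all. At an unadjusted p under 0.05 stood 1 member, Dusp9, among 2799 such genes. Its interaction of 0.91 (SE 0.351) rests on 2 to 11 contralateral counts per library, below what the filter asks of a group, and is given as a description. On the lesioned side its level was 1.12 ± 0.0557 CPM in control and 1.13 ± 0.148 CPM in cKO mice (SD, n = 5). The interaction was 0.00 (SE 0.0716) for Dusp7, -0.08 (SE 0.125) for Dusp1, -0.14 (SE 0.123) for Dusp10, and 0.12 (SE 0.140) for Dusp5, which was called in controls only without pairing and in both genotypes with the mouse as a replicate block, though in controls only with the mouse as a random effect. None of these shows that the responses were alike, only that differences of the size of these errors could not be seen.

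**Figure D3:**
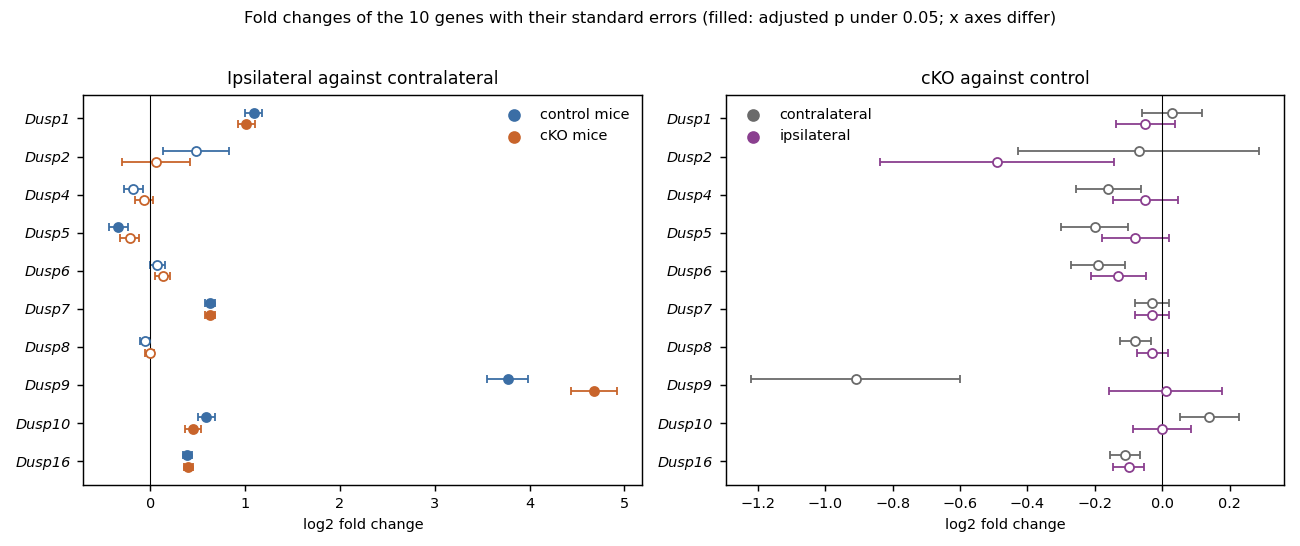
Log2 fold changes (x axes, points, with bars for 1 SE, n = 5 libraries per group) of ipsilateral against contralateral ganglia at left and of cKO against control at right, with filled points for an adjusted p under 0.05 and different x scales. In both genotypes 5 genes have filled points right of 0, and all 20 genotype points are open. Dusp9 is among the 5 and entered the test only through its ipsilateral libraries.

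The other genes of the pathway are given by list, with the same test, which called 29.9% of all tested genes in control and 31.3% in cKO mice. Of 10 MAP kinase genes, the substrates of these enzymes, 2 were higher and 1 lower in control mice, and 4 higher and 1 lower in cKO mice, the former at the share of all genes. Mapk14, the main p38 kinase, rose by 0.35 (SE 0.0319, adjusted p = 2.88e-08) and 0.48 (SE 0.0319, adjusted p = 1.90e-10) on the log2 scale. Mapk12, another p38 kinase, was lower in both genotypes (-0.21 in each), Mapk7, which encodes ERK5, was higher by 0.12 and 0.31, and Mapk13 was higher by 0.49 in cKO mice. Of 7 upstream MAP2 kinases, 4 were lower and 0 higher in controls, and 2 lower and 0 higher in cKO mice. Map2k6, which activates p38, showed the largest of these differences at -0.57 (SE 0.0757, adjusted p = 5.19e-06) and -0.61 (SE 0.0757, adjusted p = 2.12e-06), followed by Map2k5, the activator of ERK5, at -0.22 and -0.21.

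Of 11 effector kinases listed, 10 were matched. In control mice 3 were higher and 1 lower, and in cKO mice 2 higher and 1 lower. Rps6ka1, a ribosomal S6 kinase activated by ERK, averaged 19.5 ± 1.00 CPM contralaterally and 36.5 ± 1.71 CPM ipsilaterally in controls (SD, n = 5). The cKO averages were 19.8 ± 0.729 and 36.1 ± 1.95 CPM, and the log2 fold changes 0.91 and 0.87. Mapkapk2, the main p38 effector kinase, rose by 0.47 and 0.36, and Rps6ka6 was lower (-0.51 and -0.33). The Sprouty and Spred genes, another set of feedback inhibitors of this pathway, were called at shares close to or below that of all genes: of 7 listed 6 were matched, of which, 0 were higher and 2 lower in controls (Spry4 at -0.49 and Spred2 at -0.18) and 1 was higher in cKO mice (Spry2 at 0.29). Of 13 transcription factor and early genes that ERK induces, 8 rose and 1 fell in each genotype, among them Fosl1 (1.09 and 1.06), Myc (0.77 and 0.90) and Fos (0.65 and 0.77). The 1 that fell was Etv1 (-0.41 and -0.46), named after its value was seen.

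Among the 4 other phosphatases of MAP kinases, Ptpn5, the striatal-enriched tyrosine phosphatase, was higher after injury (0.49 in controls, 0.73 in cKO mice), as was Ptprr in cKO mice (0.31). The atypical dual-specificity phosphatases lack the MAP kinase binding domain. Of 13 listed 11 were tested, and 3 were higher and 3 lower in each genotype. Thus 6 of 11 were called, as against 6 and 5 of the 10 members, Dusp9 included. Dusp14 rose by 0.74 and 0.75 log2 units (SE 0.0625 in each; adjusted p = 1.21e-08 and 7.96e-09), with Dusp18 at 0.32 and 0.31 and Dusp15 at -0.30 and -0.33. No gene of these lists was called for genotype or the interaction by edgeR. Dissection itself can induce Dusp1 and other early genes. Of 10 such genes 6 were higher on the lesioned side in each genotype and 0 lower (medians of 0.50 in controls and 0.44 in cKO mice on the log2 scale), with Btg2 at 1.03 and 0.74 besides Atf3, which is also an axotomy gene. Both sides of a mouse went through dissociation, and its part in the levels was not tested.

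**Figure D4:**
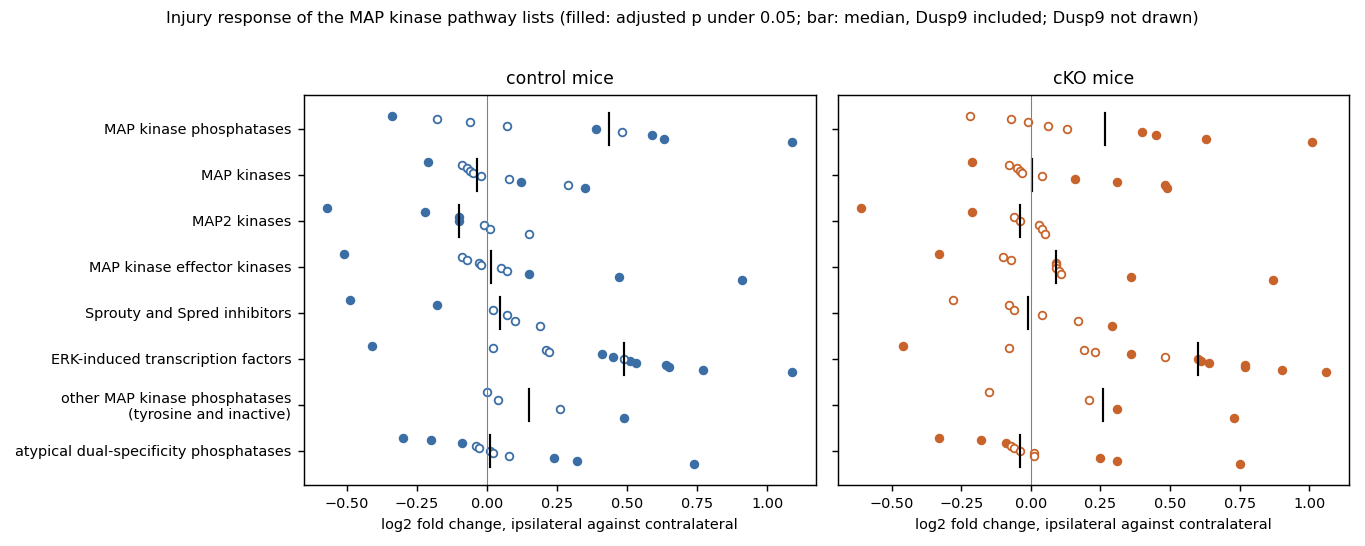
Log2 fold changes of ipsilateral against contralateral ganglia (x axes) for the genes of each list (rows), 1 point per gene, filled for an adjusted p under 0.05, with a black bar at the list's median, in control mice at left and cKO mice at right. Dusp9, at 3.77 and 4.68, lies off the scale and is counted in its median. The bar of the phosphatases lies at 0.43 and 0.27, and with Dusp9 left out their middle member is at 0.39 and 0.13. That of the ERK-induced transcription factors lies at 0.49 and 0.60, and that of the other MAP kinase phosphatases at 0.15 and 0.26.

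The members' profiles over the 20 libraries can be set beside those of other genes, as a description that includes the difference between the sides. Among 13112 genes with a symbol and a mean of at least 5 CPM, the most alike by Pearson's r of log2 CPM were Prag1 (0.986), Cyth2 (0.985) and Ptk2 (0.985) for Dusp1, Arid5a (0.988), Riok3 (0.985) and Herc4 (0.985) for Dusp7, Epb41l4b (0.974) for Dusp16 and Plcd1 (0.949) for Dusp10. Dusp5, which fell, was most like Diras2 (0.915), Tex2 (0.912) and Spry4 (0.909), the last a feedback inhibitor of ERK signalling. Dusp6 was most like the ERK-induced gene Egr1 (0.777), Dusp8 most like Fam8a1 (0.886) and Mapt (0.880), and Dusp4 most like Ephb6 (0.806). After the group means were removed, the members' deviations over 20 libraries were most alike for Dusp1 and Dusp10 (r = 0.639), Dusp5 and Dusp8 (0.623) and Dusp7 and Dusp16 (0.538), and most opposed for Dusp8 and Dusp9 (-0.524). For Dusp9, the contralateral deviations rest on 2 to 11 counts per library. The 20 libraries share preparation and, in pairs, mice, and the values are given without a test.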

How the data were processed

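mRNA libraries from 10 mice (Illumina Stranded mRNA kit, 150 bp paired reads, per the labels' protocols) were analysed from the deposited table of exonic read counts per gene, whole numbers that were not normalized. The submitters' processing notes name HISAT2, Picard, mm10 and mm39 without saying which did what. The counter, annotation and strand setting are not given in the sources used here. A deposited FPKM table was not used here.

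Symbols were found for 51487 of 78258 identifiers, which held 98.1% of counts. Genes were filtered with filterByExpr (minimum count 10), leaving 28564, scaled by TMM, and tested in edgeR 4.0.16 (R 4.3.3) with robust quasi-likelihood F-tests on 1 mean per group over all 20 libraries. P-values were adjusted by Benjamini-Hochberg over all tested genes. CPM values are TMM-normalised, and log2 CPM used a prior count of 2. Each mouse is 1 biological replicate. Both libraries of a mouse carry its number in their library names, which pairs them by animal. The title of 1 contralateral cKO library reads H6 where its library name reads H61, and H61 was used. Their deviations from group means correlated at a median of 0.186 (-0.0546 to 0.361, over 0.1 in 7 of 10 mice). Alternatives were the mouse as a block, RLE scaling, other filters, DESeq2 1.42.0, limma-voom (limma 3.58.1), the mouse number range as a covariate, only the libraries compared, and leaving out each mouse. At 76150333 to 118537209 counts per library, contralateral Dusp9 is limited by counting error, with 2 to 11 counts. Dusp2, with 7 to 63 counts, also varied between mice, over that whole range within the control contralateral libraries.

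Members and gene lists were chosen with earlier results of these data known. Named genes are all 10 members, Ahr, Atf3 and, from each list, the 3 called genes with a mean CPM of at least 1 and the largest absolute log2 fold change in each injury comparison. Calls in the Schwann cell marker list are not reported here.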

Additional observations from a re-analysis of the deposited data

Results flagged for a closer look

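One library of 5 stood far from the others in 4 of the 72 groups of values checked, where chance gives 3.60. The measure is the gap to the nearest library as a share of the group's range, with a critical value of 0.71. Dusp1 in cKO ipsilateral ganglia was highest in H64 (69.6 CPM, the others 54.6 to 57.7 CPM, gap 0.791). Dusp16 was highest in the same library (26.3 CPM, the others 23.9 to 24.6 CPM, gap 0.720). That library had the largest total, 118537209 counts, and the highest Atf3, 462 CPM. Within its group it was lowest for the 13 neuron markers (12468 CPM) and the 6 satellite glia markers (1678 CPM). It was highest for the 7 neutrophil markers (184 CPM). Whether tissue make-up has a part in its values was not tested. The Ahr response of the cKO mice, ipsilateral minus contralateral log2 CPM, was also highest in H64, at 0.81 (gap 0.761). Dusp10 in cKO contralateral ganglia was highest in H100 (6.75 CPM, the others 4.75 to 5.12 CPM, gap 0.818).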

How the results depend on the processing

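Dusp1, Dusp7, Dusp10 and Dusp16 kept their injury call and direction in both genotypes under every alternative run. Keeping only genes that averaged 1 CPM or more left Dusp2 and Dusp9 out. Members called after injury numbered 5 to 7 in control and 4 to 6 in cKO mice. Over all genes, calls in control mice ran from 6832 (without H63) to 9270 (limma-voom). In cKO mice they ran from 7144 (only the libraries compared) to 9741 (limma-voom). The number of genes tested changed with the filter. With the mouse as a replicate block, 7 and 6 were called, since Dusp4 in control (-0.18) and Dusp5 in cKO mice (-0.22) were gained (neither with the mouse as a random effect), and the interaction called 0. The block changed no other member's call. Of the 28564 tested genes it called 8559 in control and 9015 in cKO mice, beside 8540 and 8939 without it. Dusp5 in control mice was lost without H62 (-0.26). Between genotypes contralaterally, leaving out 1 mouse gave 0 to 2 member calls. The 21 contralateral calls over all genes became 50 without a filter, 45 with genes averaging 1 CPM or more, 2 with only the libraries compared, 1030 with DESeq2, and 4 (without H95) to 3326 (without H99) with 1 mouse left out. For the interaction, DESeq2 called 11 genes over all, and leaving out 1 mouse gave 0 to 43 (without H99). The cause was not tested.

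Differences that changed sign were called neither before nor after. After injury in cKO mice, Dusp8 was 0.00 without a filter and with only the libraries compared and -0.05 to 0.02 with 1 mouse left out, and Dusp2 ranged over -0.15 (without H100) to 0.21. Contralaterally between genotypes, Dusp2 was 0.05 with limma-voom and -0.28 to 0.30 with 1 mouse left out, and Dusp1 -0.03 to 0.08. Ipsilaterally, Dusp9 was 0.00 with limma-voom and -0.06 to 0.06 with 1 mouse left out, Dusp10 was 0.00 with DESeq2 and -0.04 to 0.04, Dusp4 was -0.09 to 0.01 and Dusp7 -0.06 to 0.01. For the interaction, Dusp7 was 0.00 with genes averaging 1 CPM or more and with DESeq2 and -0.04 to 0.04 with 1 mouse left out, and Dusp16 -0.03 to 0.03. Counting error limits contralateral Dusp9, and Dusp2 also varied between mice of a group.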
